A study of Mus musculus with 2 samples.

Results

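Fgf13 Rspo3 CAR mesenchymal cells are marrow stromal cells with the markers of CXCL12-abundant reticular (CAR) cells in which transcripts of Fgf13 and Rspo3 were counted together at least 4 times. They were chosen by raw counts of unique molecular identifiers (UMIs, 1 per captured RNA molecule). A barcode was kept with at least 500 genes and at most 10% mitochondrial UMIs, and a kept cell was taken as a CAR cell with at least 10 UMIs of Cxcl12, at least 1 of Lepr and fewer than 3 of Cdh5 and Kdr together. Members had at least 4 UMIs of Fgf13 and Rspo3 together, fewer than 5 of Wif1, Alpl and Hs3st5 together, fewer than 15 of C3 and Saa3 together, fewer than 3 of Cxcl13, fewer than 3 of Kit and fewer than 5 of Grm7. The rule gave 5300 members among 47933 barcodes, 864 of them in the old and 4436 in the adult library. Members were set against CAR cells of the same library with 0 UMIs of both Fgf13 and Rspo3, called zero cells here, of which there were 4951 in the old and 2468 in the adult library.

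The libraries were made from long-bone marrow of old and of adult wild-type C57BL6 mice, 1 library for each age. Flushed bones were digested with enzymes, blood cells were depleted magnetically, live cells were sorted by scatter and DAPI, and 3' transcripts were counted with 10x Chromium chemistry. The labels give age as a word only, and no source used here states how many mice there were, their sex, their exact age or whether they were pooled. Age and library therefore cannot be told apart, cells are not replicates, no test was possible, and the intervals given are 95% intervals that cover counting error only.

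CAR cells are perivascular mesenchymal cells that secrete the chemokine CXCL12 and stem cell factor, and they hold blood stem cells and lymphoid progenitors in the marrow. R-spondins such as RSPO3 are secreted proteins that amplify Wnt signalling by keeping Wnt receptors on the cell surface. FGF13 belongs to the FGF homologous factors, which stay inside the cell and bind voltage-gated sodium channels and microtubules, and BMP4 is a secreted ligand of the TGF-beta superfamily with roles in bone and blood formation.

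The old library held 22298 barcodes and 229917243 UMIs, and the adult library held 25635 barcodes and 208637421 UMIs. After filtering, 18975 old and 22403 adult cells remained, of which 13461 and 16097 were CAR cells. Members were deeper than zero cells, with a median of 9175.5 against 6646 UMIs in the old library and 9142 against 4931 UMIs in the adult library. No doublets were removed. The libraries shared 152 barcodes, which 3 old and 25 adult members carried. Transcripts typical of other cells differed between members and zero cells. Whether they came from other cells or from the CAR cells themselves was not tested. The osteolineage transcripts Bglap, Bglap2, Col1a1 and Col1a2 took over 1% of UMIs in 0 of 864 old members and in 0.202% of old zero cells. For these members an approximate one-sided limit (3 in 864, not an exact binomial interval) allows a share of up to 0.347%. In the adult library the shares were 1.53% of members and 18.4% of zero cells. Transcripts of 8 blood-cell genes (S100a8, S100a9, Car1, Car2, Hba-a1, Hbb-bs, Elane and Mpo) took over 0.2% of UMIs in 0.926% of old members and 3.29% of old zero cells. In the adult library they did so in 1.87% of members and 9.68% of zero cells. Many ratios are therefore also given for clean cells, which lay under both limits, held 6000 to 12000 UMIs and, for zero cells, met the members' limits on the other genes of the rule. This setting was chosen after the data were examined. Clean cells were selected on these osteolineage and blood-cell genes, so the clean-cell ratios of the same genes were bounded by the selection.

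Members made up 6.42% of old CAR cells (6.01% to 6.85%) and 27.6% of adult CAR cells (26.9% to 28.3%). Before the limits on the other genes of the rule, 18.3% of old and 42.6% of adult CAR cells had at least 4 UMIs of both genes together. The limits removed 65.0% of these 2469 old cells and 35.3% of these 6851 adult cells. In the old library 23.5% were past the limit on Wif1, Alpl and Hs3st5, 22.7% past that on Grm7, a glutamate receptor gene, 19.5% past that on the chemokine gene Cxcl13 and 16.1% past that on the complement and acute-phase genes C3 and Saa3. In the adult library 32.8% were past the Wif1, Alpl and Hs3st5 limit, and each of the others applied to at most 1.33%.

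A fixed number of UMIs takes deeper cells, so the share was also read at equal depth. With every CAR cell thinned to 5000 UMIs, which left out 18.2% of old and 22.7% of adult CAR cells as too shallow, members made up 4.73% of old and 21.7% of adult CAR cells. The limits on other genes were applied to the thinned counts and so removed a smaller part of the cells than before. Without these limits 7.41% of old and 26.5% of adult thinned CAR cells had at least 4 UMIs of both genes together. Within depth bands, the old share was 1.49% at 2000 to 4000 UMIs, 4.28% at 4000 to 6000, 6.78% at 6000 to 8000, 8.40% at 8000 to 12000 and 8.85% at 12000 to 20000. The adult share in the same bands was 9.49%, 18.6%, 28.6%, 38.4% and 37.3%. The old share was the lower in each of the 5 bands. Because the rule is a cut on counts, a lower share of such cells and less of these 2 transcripts per CAR cell cannot be told apart.

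**Figure D1:**
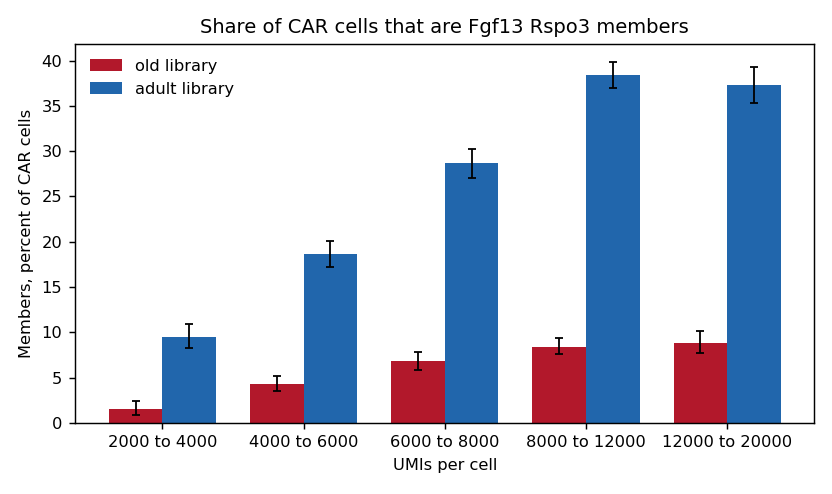
Share of CAR cells that were Fgf13 Rspo3 members (percent, y axis) by UMIs per cell (x axis) in the old library (red) and the adult library (blue); bars are shares and lines are exact binomial intervals of counting error. The old share was 6.78% and the adult share 28.6% at 6000 to 8000 UMIs, and the old bar is the lower in every band.

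Most members qualified through Rspo3. Its transcripts occurred in 96.2% of old and 97.0% of adult members, with a median of 4 and 5 UMIs, and its level was 453 CPM (the gene's UMIs scaled to the summed UMIs of the cells) in old and 545 CPM in adult members. Fgf13 occurred in 32.6% of old and 56.7% of adult members, at 160 and 301 CPM. These values were set by the rule and are a description. Of old members, 249 held both transcripts, 582 held Rspo3 alone and 33 held Fgf13 alone. Of adult members, 2380 held both, 1921 held Rspo3 alone and 135 held Fgf13 alone.

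Both transcripts were also counted in barcodes taken as other cells, at lower shares than in members, whose shares the rule had set. These barcodes were shallower than members, and whether they held free RNA was not tested. In megakaryocyte-like barcodes, which should lack both genes, Fgf13 occurred in 2.91% of 378 old and 4.99% of 481 adult cells and Rspo3 in 2.12% and 8.52%, at a median depth of 1843.5 and 1660 UMIs. In endothelial-like barcodes Fgf13 occurred in 0.690% of 145 old and 4.82% of 955 adult cells, and Rspo3 in 2.07% and 5.76%, at a median depth of 4460 and 5926 UMIs. The levels of Fgf13 in these barcodes were between 1.17 and 12.9 CPM.

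After thinning to 5000 UMIs, 8.17% of old CAR cells (7.65% to 8.71%) held Fgf13, as did 28.8% of adult ones, and Rspo3 occurred in 50.5% and 74.6%. Both genes were thus found in fewer old than adult CAR cells, by a wider ratio for Fgf13. Among thinned old CAR cells, 9.87% of those with Rspo3 and 6.43% of those without it held Fgf13, and among adult CAR cells 30.5% and 23.8% did. Within each library, the share with Fgf13 was higher among cells with Rspo3.

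Fgf13 was rarer and less evenly spread over CAR cells than Rspo3. In thinned cells the 5% with most Fgf13 held 85.0% of all Fgf13 UMIs in the old library and 49.3% in the adult library, whereas the 5% with most Rspo3 held 25.3% and 19.4% of its UMIs. A few members carried many molecules, up to 79 Fgf13 UMIs in an old and 68 in an adult member. At least 10 Fgf13 UMIs were counted in 3.70% of old and 7.48% of adult members. For Rspo2, the paralogue of Rspo3, the 5% with most held 30.3% and 27.6% of its UMIs. Such a share is larger for a rarer gene, and Fgf13 had a mean of 0.212 UMIs in old and 0.796 in adult thinned cells. The means were 0.936 and 1.86 for Rspo3 and 2.87 and 2.93 for Rspo2. The variance over the mean was 6.48 and 5.57 for Fgf13, 1.74 and 1.92 for Rspo3 and 6.77 and 5.86 for Rspo2.

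Beside the rule's own genes, the label's markers were Bmp4, Lpl, Adipoq and Slc26a7. Members were chosen with earlier results of these data known, so these levels are a description and no check of the label. All 4 markers were higher in members than in zero cells of both libraries. Bmp4 was at 209 CPM in old members, against 79.8 CPM in old zero cells, and at 312 CPM in adult members, against 137 CPM in adult zero cells, log2 ratios of 1.39 (1.31 to 1.47) and 1.18 (1.11 to 1.25). Slc26a7, an anion exchanger, was at 101 CPM in old members, against 45.3 CPM in old zero cells, and at 163 CPM in adult members, against 92.9 CPM in adult zero cells. Lpl, the lipoprotein lipase, was at 1069 CPM in old members, against 839 CPM in old zero cells, and at 2536 CPM in adult members, against 1945 CPM in adult zero cells. Adipoq, the adipokine adiponectin, was at 1450 CPM in old members, against 966 CPM in old zero cells, and at 1854 CPM in adult members, against 1507 CPM in adult zero cells. In clean cells Bmp4 and Slc26a7 kept log2 ratios of 1.22 and 0.79 in the old library and 0.98 and 0.41 in the adult library. Lpl came to 0.12 in the old and -0.04 in the adult library there, and Adipoq to 0.34 and -0.02. Outside CAR cells, Bmp4 was at 10.2 CPM in old and 24.8 CPM in adult megakaryocyte-like barcodes.

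Of 11 CAR markers, 9 were not part of the rule, and their summed level in members was above that in zero cells. It was 12746 CPM in old members, against 9980 CPM in old zero cells, and 12718 CPM in adult members, against 9893 CPM in adult zero cells. In the zero cells of the clean setting the sum was close to that of all members, at 12446 CPM in the old and 12567 CPM in the adult library. Among markers of other cell types, the 6 endothelial markers outside the rule summed to 34.4 CPM in old and 80.5 CPM in adult members and the 4 Schwann markers to 6.42 and 6.36 CPM. The 6 megakaryocyte markers summed to 175 CPM in old members, against 96.6 CPM in old zero cells, and to 101 CPM in adult members, against 151 CPM in adult zero cells. Fibroblast markers summed to 750.0 CPM in old and 416 CPM in adult members, plasma cell markers to 505 and 188 CPM, pericyte and smooth muscle markers to 356 and 428 CPM and chondrocyte markers to 45.7 and 478 CPM. B lineage markers summed to 3771 and 3765 CPM, of which Ebf1, which CAR cells express too, made 3751 and 3763 CPM. Erythroid markers summed to 2790 CPM in old members, against 2120 CPM in old zero cells, and to 1488 CPM in adult members, against 2346 CPM in adult zero cells, and Hbb-bs alone was at 1812 CPM in old and 979 CPM in adult members. Of the 6 adipocyte markers, Lep was at 0 in members of both libraries. Col9a1 and Cd34 were at 0 in old members, and Mzb1, Cd3e and Trbc2 were at 0 in adult members. The sum of 9 osteolineage markers was 7149.8 CPM in old members, against 6116 CPM in old zero cells, and 11712 CPM in adult members, against 35489.6 CPM in adult zero cells and 11350.2 CPM in the adult zero cells of the clean setting. Among them Ibsp was at 2930 CPM in old and 6712 CPM in adult members. The clean setting was itself selected for few Bglap, Col1a1 and Col1a2 transcripts.

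Against this background few genes stood far apart. At least 50 CPM and 50 UMIs in the higher group were needed for a gene to be counted, and the genes of the rule were left out. With a call set at a 2-fold ratio, 10 of 4008 genes (0.25%) were called higher in old members and 27 (0.674%) lower. In the adult library 6 of 3985 genes (0.151%) were called higher in members and 52 (1.3%) lower. At 1.5-fold, a threshold added after the data were examined, 100 genes were higher (2.5%) and 158 lower (3.94%) in old members, and 47 were higher (1.18%) and 90 lower (2.26%) in adult members.

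The genes called higher at 2-fold in both libraries were Bmp4, Cpa6 and Ptchd4. Cpa6 and Ptchd4, like Tnc and Limch1 below, were chosen after their values were seen. Cpa6, a secreted carboxypeptidase, was at 72.0 CPM in old members, against 26.1 CPM in old zero cells, and at 117 CPM in adult members, against 44.0 CPM in adult zero cells. Ptchd4, a patched-domain protein, was at 99.1 CPM in old members, against 38.7 CPM in old zero cells, and at 68.8 CPM in adult members, against 27.6 CPM in adult zero cells. In clean cells Cpa6 was 1.49 and 1.19 higher on the log2 scale in the old and adult library, and Ptchd4 1.004 and 0.84. The genes called lower at 2-fold in both were Car2, Lum, S100a8 and S100a9, and the last 2 are neutrophil transcripts whose summed marker list was at 35.3 CPM in old members, against 474 CPM in old zero cells, and at 59.3 CPM in adult members, against 149 CPM in adult zero cells. In the zero cells of the clean setting the list was at 31.2 CPM in the old and 11.5 CPM in the adult library. Those cells were selected for few S100a8, S100a9, Elane and Mpo transcripts and the members above were not, so these levels cannot be compared. In clean cells S100a8 had ratios of 0.039 and 0.87, S100a9 0.35 and 0.29, Car2 -0.014 and -0.55 and Lum -1.20 and -0.078. Clean cells were selected for few S100a8, S100a9 and Car2 transcripts, so the ratios of these genes there are no separate result. At 1.5-fold, 26 genes were higher in members of both libraries, which is 29.5% of the old calls and 57.8% of the adult calls among genes counted in both. The 2 libraries' log2 ratios had a Pearson correlation of 0.604 across 3638 genes, which are not independent replicates, and of 0.543 across 3668 genes in clean cells.

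**Figure D2:**
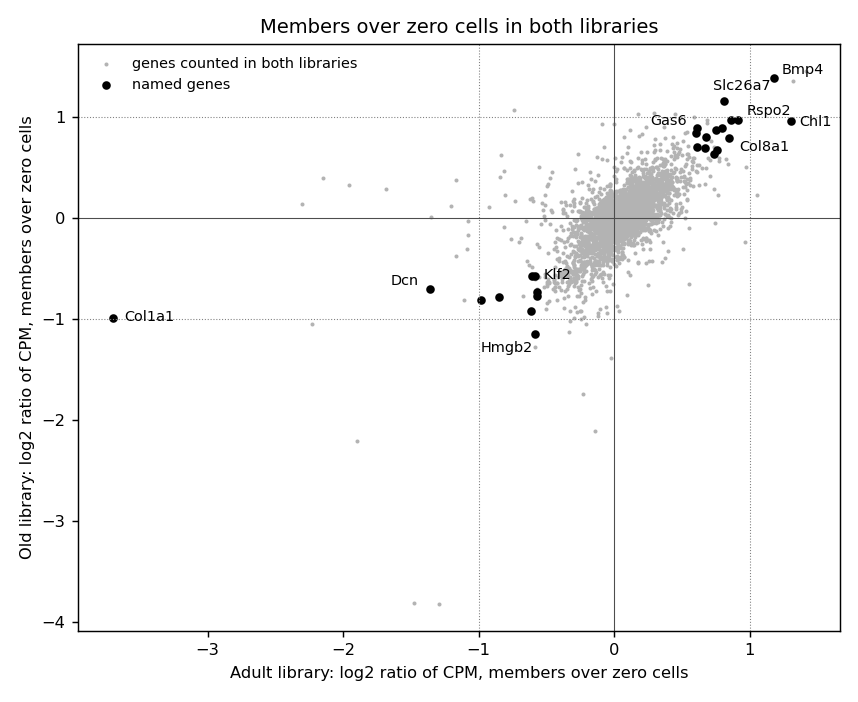
Log2 ratio of CPM, members over zero cells, in the adult library (x axis) and the old library (y axis), for genes counted in both libraries outside the rule; black points are the genes named by rule and dotted lines mark 2-fold. Bmp4 (1.39 old, 1.18 adult) stands at the upper right, and Col1a1 (-0.98 old, -3.70 adult) at the far left.

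Among the named genes with secreted products, Rspo2, which acts on the same receptors as Rspo3, was at 724 CPM in old members, against 368 CPM in old zero cells, and at 780 CPM in adult members, against 415 CPM in adult zero cells. Its log2 ratio was 0.97 (0.93 to 1.02) in the old and 0.91 (0.87 to 0.95) in the adult library, and 0.78 and 0.53 in clean cells. Sfrp1, a secreted frizzled-related protein that binds Wnt ligands, was at 242 CPM in old members, against 130 CPM in old zero cells, and at 142 CPM in adult members, against 81.6 CPM in adult zero cells. Rspo2 and this Wnt antagonist were thus both higher in members chosen by Rspo3 and Fgf13. Gas6, the ligand of the TAM receptor tyrosine kinases, was at 2275 CPM in old members, against 1227 CPM in old zero cells, and at 1814 CPM in adult members, against 1187 CPM in adult zero cells. Vegfc, the lymphangiogenic growth factor, was at 843 CPM in old members, against 515 CPM in old zero cells, and at 711 CPM in adult members, against 465 CPM in adult zero cells. In clean cells the log2 ratio of Gas6 was 0.72 in the old and 0.52 in the adult library, that of Sfrp1 0.79 and 0.81, and that of Vegfc 0.41 and 0.34.

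Chl1, a neural cell adhesion molecule of the L1 family, was at 234 CPM in old members, against 120 CPM in old zero cells, and at 103 CPM in adult members, against 41.8 CPM in adult zero cells. Its log2 ratios were 0.96 in the old and 1.30 in the adult library, and 0.91 and 1.04 in clean cells. Col8a1, a short-chain collagen of basement membranes, was at 1497 CPM in old members, against 861 CPM in old zero cells, and at 496 CPM in adult members, against 276 CPM in adult zero cells. Its log2 ratio was 0.80 in the old and 0.85 in the adult library, and in clean cells it was 0.76 and 1.61. Tnc, the matrix glycoprotein tenascin C, was at 1951 CPM in old members, against 1107 CPM in old zero cells, and at 1674 CPM in adult members, against 1474 CPM in adult zero cells. Its log2 ratio was 0.82 in the old and 0.18 in the adult library, and 0.83 and 0.66 in clean cells. Limch1, an actomyosin regulator, gave 0.81 in the old and 0.07 in the adult library over all cells, and 0.90 and 0.82 in clean cells.

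Channels, transporters and enzymes were among the named genes too. Kcnq3, a voltage-gated potassium channel, was at 304 CPM in old members, against 155 CPM in old zero cells, and at 146 CPM in adult members, against 80.1 CPM in adult zero cells, with clean-cell ratios of 0.60 and 0.57. Slc5a3, the myo-inositol transporter, had log2 ratios of 0.68 in the old and 0.76 in the adult library, which came to 0.28 and 0.33 in clean cells. Pdzrn4, a PDZ and RING domain protein, was the most abundant of the named genes at 3383 CPM in old and 4373 CPM in adult members, with ratios of 0.81 and 0.68 that came to 0.42 and 0.19 in clean cells. Arhgap28 had ratios of 0.88 and 0.75, and 0.68 and 0.57 in clean cells. Adamtsl3, an ADAMTS-like matrix protein, had ratios of 0.69 and 0.67, and 0.51 and 0.20 in clean cells. Ackr4, the scavenger receptor of the chemokines CCL19 and CCL21, had ratios of 0.64 and 0.74, and 0.48 and 0.66 in clean cells. All 15 genes named as higher stayed above 0 in clean cells of both libraries, with ratios of 0.28 to 1.22 in the old and 0.19 to 1.61 in the adult library.

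The BMP genes leaned towards the members. Of 23 on the list of ligands, antagonists and targets, 13 were counted in the old library, all 13 higher in members, with a median log2 ratio of 0.39 against 0.04 over all genes counted. In the adult library 15 were counted, 12 higher and 3 lower, with a median of 0.22 against 0.06. Only Bmp4 passed 2-fold in either library. Fst, follistatin, which binds activins and BMPs, was at 277 CPM in old members, against 154 CPM in old zero cells, and at 419 CPM in adult members, against 275 CPM in adult zero cells, with clean-cell ratios of 0.50 and 0.27. Chrdl1, the BMP antagonist chordin-like 1, was at 1077 CPM in old members, against 712 CPM in old zero cells, and at 1000.3 CPM in adult members, against 669 CPM in adult zero cells, with clean-cell ratios of 0.37 and 0.15. Id4, a helix-loop-helix inhibitor and BMP target, had log2 ratios of 0.59 and 0.69, and 0.56 and 0.61 in clean cells. Id3, another such target, had 0.57 and -0.06. In clean cells the list's median was 0.13 in the old and 0.07 in the adult library.

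Of 13 R-spondin and Wnt ligand genes, Rspo2 was counted outside the rule in both libraries and Wnt4 in the adult library. Wnt4 was at 93.2 CPM in adult members, against 92.2 CPM in adult zero cells. Of 17 R-spondin and Wnt receptor genes, 8 were counted in the old and 7 in the adult library, 6 and 5 of them higher in members, and none reached 1.5-fold. Fzd5, a Wnt receptor, had the largest adult ratio of those counted, 0.51, and 0.41 in the old library. Lgr4, a receptor of R-spondins, had 0.15 in the old and -0.01 in the adult library. Of the Wnt target genes 4 were counted in each library, with none at 1.5-fold.

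The FGF list, beside Fgf13, gave 4 counted genes in the old and 6 in the adult library. Fgf7, a growth factor for epithelial cells, was at 543 CPM in old members, against 357 CPM in old zero cells, and at 526 CPM in adult members, against 381 CPM in adult zero cells, with clean-cell ratios of 0.19 and 0.15. Fgfr1, a receptor, was lower, at -0.17 in the old and -0.33 in the adult library. Of the sodium channel genes, whose products FGF homologous factors bind, Scn2a was at 10.98 CPM in old and 6.47 CPM in adult members and Scn8a at 2.83 and 6.81 CPM, below the 50 CPM needed to be counted.

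Niche factors were higher in members by modest ratios. Of 20 counted in the old library 17 were higher, with a median log2 ratio of 0.50, and of 19 in the adult library 16 were, with a median of 0.38. Il7, the cytokine of early lymphoid cells, was at 175 CPM in old members, against 87.2 CPM in old zero cells, and at 221 CPM in adult members, against 147 CPM in adult zero cells, with clean-cell ratios of 0.72 and 0.40. Csf1, the macrophage growth factor, had log2 ratios of 0.52 and 0.53 and kept 0.34 in clean cells of each library. Kitl, stem cell factor, was at 3886 CPM in old members, against 3418 CPM in old zero cells, and at 3990 CPM in adult members, against 3049 CPM in adult zero cells, but its clean-cell ratios were -0.01 and -0.03. Tnfsf11, the osteoclast factor RANKL, was at 233 CPM in old members, against 146 CPM in old zero cells, and at 867 CPM in adult members, against 687 CPM in adult zero cells, with 0.18 and -0.09 in clean cells. Ptn, pleiotrophin, was at 62.3 CPM in old members, against 71.0 CPM in old zero cells, and at 361 CPM in adult members, against 307 CPM in adult zero cells. The list's clean-cell median was 0.22 in the old and 0.06 in the adult library.

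Adipogenic genes were split. Of 13 counted in each library, 8 were higher and 5 lower in members, with a median of 0.11 in the old and 0.30 in the adult library. Pparg, the master regulator of fat cells, was at 324 CPM in old members, against 206 CPM in old zero cells, and at 378 CPM in adult members, against 271 CPM in adult zero cells, with clean-cell ratios of 0.46 and 0.14. Cebpa, its partner factor, had log2 ratios of 0.60 and 0.59, and 0.38 and 0.42 in clean cells. Cebpb had -0.42 and -0.17, and Cebpd -0.46 and -0.12, both factors of early adipogenesis. In clean cells the list's median was -0.01 in the old and -0.02 in the adult library.

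Immediate early genes were lower in members of both libraries. Of 15 counted in the old library all 15 were lower, with a median log2 ratio of -0.34, and of 18 in the adult library 16 were lower, with a median of -0.27. Here the ratio was larger in clean cells, with medians of -0.54 in the old and -0.48 in the adult library, and -0.62 and -0.48 after thinning. Klf2, a zinc finger factor, was at 175 CPM in old members, against 260 CPM in old zero cells, and at 296 CPM in adult members, against 444 CPM in adult zero cells. Ier2 had -0.57 and -0.61, and Jun, a subunit of AP-1, -0.47 and -0.21. Fos, its partner, was at 992 CPM in old members, against 1212 CPM in old zero cells, and at 2405 CPM in adult members, against 2859 CPM in adult zero cells, with clean-cell ratios of -0.56 and -0.51. The adult genes Nr4a3 and Klf6, at 0.01 each, were the exceptions over all cells, and in clean cells both were lower, at -0.44 and -0.30.

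Several other genes named as lower were near 0 or changed sign in clean cells in at least 1 library. Col1a1, the type I collagen of bone, was at 110 CPM in old members, against 217 CPM in old zero cells, and at 1102 CPM in adult members, against 14312 CPM in adult zero cells, a log2 ratio of -3.70. In clean cells its ratio was 0.27 in the old and -0.06 in the adult library. Clean cells were selected for few transcripts of Col1a1 and other osteolineage genes, so this ratio and the clean-cell osteogenic medians below were bounded by the selection. Dcn, decorin, had -0.70 and -1.36, and -0.62 and 0.14 in clean cells. Nme1, a nucleoside diphosphate kinase, Atpif1, the inhibitor of mitochondrial ATP synthase, Hmgb2, a chromatin protein, Eef1b2, a translation elongation factor, and Rack1, a ribosome-bound scaffold, had ratios of -0.57 to -1.14 over both libraries, and in clean cells -0.23 to 0.07. Gsn, gelsolin, had -0.78 and -0.85, and -0.54 and -0.09. The osteogenic list had a median of 0.25 over 12 genes in the old library and -1.42 over 20 in the adult library, and 0.15 and 0.02 in clean cells. Osteolineage RNA moved with this result, as given above, and the members' limit on Wif1, Alpl and Hs3st5 did not hold for zero cells. The part of either was not tested. Of 29 oxidative phosphorylation genes counted in the old library 28 were lower, and of 31 in the adult library, where Atp5o stands under 2 identifiers, 29, with medians of -0.23 and -0.19, whereas in clean cells both medians were 0.06.

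Of 28 collagen and matrix genes counted in the old library 24 were higher in members, and of 30 in the adult library 19, with medians of 0.27 and 0.16, and 0.13 and 0.09 in clean cells. Of the interferon response genes 12 of 13 were higher in old and 7 of 9 in adult members, with medians of 0.28 and 0.12, and 0.24 and -0.15 in clean cells. Glucocorticoid and circadian genes were lower in 8 of 10 cases in the old and 5 of 10 in the adult library, with medians of -0.24 and 0.01, and -0.41 and -0.30 in clean cells. Heat shock genes were lower in 12 of 13 cases in the old and 6 of 10 in the adult library, with medians of -0.74 and -0.03, and -0.30 and -0.14 in clean cells. Blood-cell genes were lower in 9 of 14 and 9 of 9 cases, with medians of -0.55 and -0.81. In clean cells, which were selected for few blood-cell transcripts, the medians were -0.02 and 0.11. CAR identity genes were higher in 17 of 22 cases in the old and 22 of 23 in the adult library, with medians of 0.16 and 0.35, and 0.04 and 0.07 in clean cells. Of the rule's own CAR genes, Cxcl12 was at 8113 CPM in old members, against 6449 CPM in old zero cells, and at 8757 CPM in adult members, against 6985 CPM in adult zero cells. Lepr was at 2535 CPM in old members, against 2217 CPM in old zero cells, and at 2206 CPM in adult members, against 1828 CPM in adult zero cells.

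In clean members of both libraries, 10 genes were at least 1.5-fold lower than in clean zero cells. They included Klf2 at -0.69 and -0.66, the chemokine Ccl2 at -1.11 and -1.41, the glucocorticoid-induced factor Zbtb16 at -0.89 and -0.90 and the circadian repressor Bhlhe40 at -1.24 and -0.62 on the log2 scale. In the same cells 49 of 4053 old genes (1.21%) were at least 1.5-fold higher and 60 (1.48%) lower, and 33 of 3964 adult genes (0.832%) were higher and 38 (0.959%) lower. These 4 were chosen from the 10 after their values were seen.

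**Figure D3:**
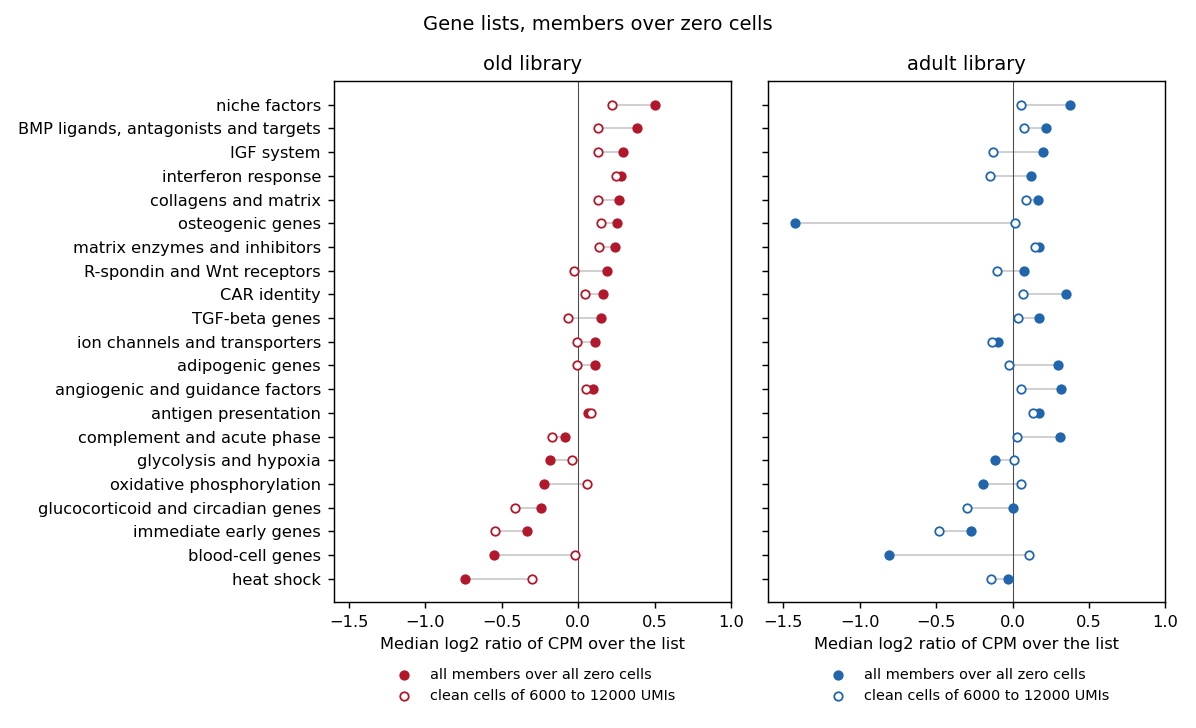
Median log2 ratio of CPM, members over zero cells (x axis), of the gene lists (rows) with at least 6 counted genes in both libraries, in the old library (left) and the adult library (right). Filled points are all cells and open points clean cells of 6000 to 12000 UMIs, which were selected for few osteolineage and blood-cell transcripts. The adult osteogenic median lies at -1.42 in all cells and at 0.02 in clean cells, and the immediate early genes lie below 0 in both.

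Several genes differed along the whole range of Fgf13 and Rspo3 counts, on both sides of the threshold of 4. In clean cells of 6000 to 12000 UMIs, old Bmp4 was at 101 CPM with 0 UMIs of the pair, 138 CPM with 1 to 3, 224 CPM with 4 to 7 and 277 CPM (244 to 314) with 8 or more. Adult Bmp4 was at 167, 230, 301 and 374 CPM in the same classes. Adult Col8a1 was at 166, 251, 399.5 and 683 CPM, and old Col8a1 at 919, 1053, 1523 and 1667 CPM. Chl1 was at 126, 167, 218 and 309 CPM in old cells and at 47.0, 61.1, 80.9 and 123 CPM in adult cells. Klf2 ran the other way, at 298, 239, 190.4 and 161 CPM in old and at 488, 433, 354 and 233 CPM in adult cells. Lpl showed no such order, at 1108, 1179.6, 1249.8 and 1004 CPM in old and at 2710.3, 2692, 2735 and 2468 CPM in adult cells. Kitl lay between 4072 and 4279 CPM over the 4 old classes and between 3822 and 4016 CPM over the 4 adult classes.

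At the threshold itself, old clean cells with 4 UMIs of the pair, which are members, had 209 CPM of Bmp4, and those with 3 UMIs had 159 CPM. Adult cells with 4 UMIs had 279 CPM, and those with 3 UMIs had 259 CPM. Gas6 was at 2451 CPM with 4 UMIs and 2145 CPM with 3 in old cells, and at 1712 CPM with 4 and 1711 CPM with 3 in adult cells. Median depths of these cells were 8477 UMIs with 4 and 8558.5 UMIs with 3 in the old library.

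**Figure D4:**
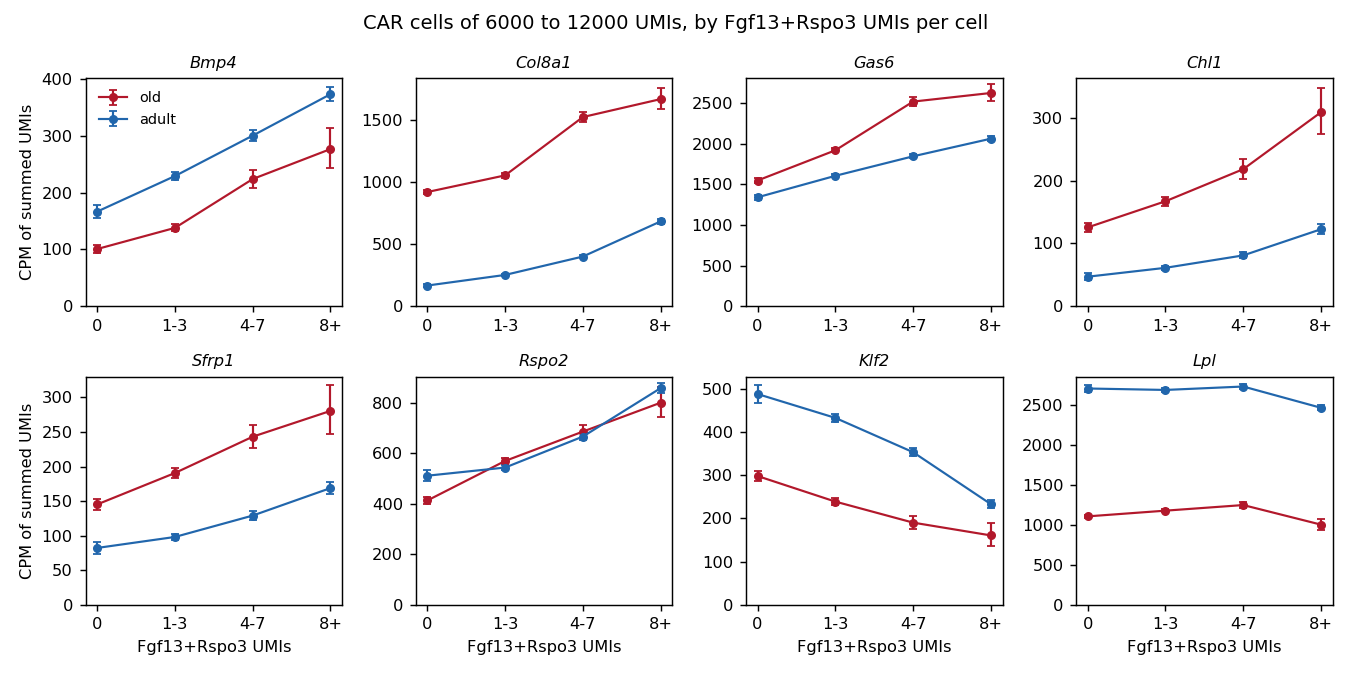
Level of 8 genes (CPM of summed UMIs, y axes from 0) in clean CAR cells of 6000 to 12000 UMIs by their Fgf13 and Rspo3 UMIs (x axis) in the old library (red) and the adult library (blue), with exact Poisson intervals of counting error. Bmp4 goes up through the 4 classes, reaching 277 CPM in old and 374 CPM in adult cells, and Klf2 goes down, whereas Lpl has no order.

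Levels also differed between members split by transcript, in groups that were not matched for UMIs of the pair. For Bmp4, the order of Rspo3 alone and Fgf13 alone was not the same in old and adult members. Old members with both transcripts had 288 CPM of Bmp4, those with Rspo3 alone 177 CPM and the 33 with Fgf13 alone 211 CPM, against 79.8 CPM in old zero cells. Adult members with both had 340 CPM, those with Rspo3 alone 278 CPM and those with Fgf13 alone 247 CPM, against 137 CPM in adult zero cells. Bmp4 was thus higher than in zero cells with either transcript alone. Chl1 was at 333 CPM with both, 192 CPM with Rspo3 alone and 276 CPM with Fgf13 alone in old members, against 120 CPM in old zero cells. In adult members it was at 121, 78.1 and 119 CPM, against 41.8 CPM in adult zero cells. Adipoq was not higher with Fgf13 alone, at 980 CPM in old members, against 966 CPM in old zero cells, and at 1375 CPM in adult members, against 1507 CPM in adult zero cells.

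Levels of some genes also differed with the Fgf13 UMIs that members held. Adult Col8a1 was at 402 CPM in members with 0 Fgf13 UMIs, 527 CPM in those with 1 to 9 and 774 CPM in the 332 with at least 10. Kcnq3 was at 112, 163 and 213 CPM in the same adult classes and at 252, 403 and 541 CPM in old members, of which 32 had at least 10 Fgf13 UMIs. Klf2 was at 354, 266 and 182 CPM in adult members and, with no such order, at 186, 148 and 185 CPM in old members. Bmp4 was at 278, 329 and 377 CPM in adult members but, with no order, at 177, 291 and 194 CPM in old members. Slc26a7 was at 158, 162 and 192 CPM in adult and at 99.3, 113 and 55.9 CPM in old members. The median depth of adult members was 9007 UMIs with 0 Fgf13 UMIs, 9056 with 1 to 9 and 10705.5 with at least 10.

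The genes whose counts went most with the pair over single CAR cells were Gas6, Tnc, Igfbp4, Limch1, Col8a1, Cdh11, Bmp4, Sfrp1, Palld and Hmgcll1. They were taken by Spearman correlation with Fgf13 and Rspo3 UMIs over 10453 old and 12000 adult CAR cells thinned to 5000 UMIs, out of 3341 genes. The correlations were weak, from 0.15 for Hmgcll1 to 0.25 for Tnc in old cells and from 0.16 for Sfrp1 to 0.26 for Col8a1 in adult cells, and cells of 1 library share their free RNA. They are a description only.

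Promoter sequences, 250 bases before to 50 after a RefSeq start on GRCm38.p6, were found for 12 of 19 genes looked up, with 17 starts. They are shown for Bmp4 and Chl1, which came first and second when the named genes were ordered by the smaller of their 2 ratios. The palindromic motif of the early B-cell factors, which CAR cells express as Ebf1 and Ebf3, was searched on both strands. So were the letters CTTTGNT, a looser form of the core of the TCF and LEF factors of Wnt signalling. Bmp4 (chr14:46390620-46390919, minus strand) held neither, and Chl1 (chr6:103510626-103510925, plus strand) held both, shown in capitals, and the motifs did not overlap each other.
Bmp4: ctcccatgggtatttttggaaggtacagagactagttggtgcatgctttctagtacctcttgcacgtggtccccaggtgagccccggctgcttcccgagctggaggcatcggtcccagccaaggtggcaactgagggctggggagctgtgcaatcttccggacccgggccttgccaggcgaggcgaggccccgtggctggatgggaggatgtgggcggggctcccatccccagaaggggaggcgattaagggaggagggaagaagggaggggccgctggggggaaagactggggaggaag
Chl1: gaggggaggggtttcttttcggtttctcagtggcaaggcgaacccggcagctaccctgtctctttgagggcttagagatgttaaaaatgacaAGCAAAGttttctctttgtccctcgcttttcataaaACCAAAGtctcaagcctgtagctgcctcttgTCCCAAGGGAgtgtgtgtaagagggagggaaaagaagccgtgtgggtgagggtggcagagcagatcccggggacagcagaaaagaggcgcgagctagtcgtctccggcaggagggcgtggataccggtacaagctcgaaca
Of the 17 starts 1 held the first motif and 1 the second, both being that of Chl1, while 0.913% and 18.6% of 32544 promoters of this length held them. On the strand that reads CTTTGNT, the Chl1 stretches had C and G at the letter N, where the usual core has A or T. They therefore match the looser form only. A match is a description of the letters and not a binding site.

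Old members differed from adult members much as old zero cells differed from adult zero cells. Of 4129 genes counted, 109 (2.64%) were called higher in old members at 2-fold and 77 (1.86%) lower. Among zero cells, 137 of 4186 genes (3.27%) were higher and 163 (3.89%) lower in the old library. Of the 101 genes higher in old members that were counted in both kinds of cell, 80 were higher in old zero cells as well, and of 73 lower genes 62 were lower. Both comparisons use the same 2 libraries. The log2 ratios of members and zero cells had a Pearson correlation of 0.950 across 3960 genes, which are not independent replicates.

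Hdac9, a histone deacetylase, was at 129 CPM in old members, against 14.6 CPM in adult members, a log2 ratio of 3.14, and 3.41 in zero cells. Efemp1, a fibulin of the matrix, was at 289 CPM in old and 37.6 CPM in adult members, a ratio of 2.94, and 3.10 in zero cells. Slpi, a secreted protease inhibitor, was at 1973 CPM in old and 20.8 CPM in adult members. The interferon-induced Trim30a had 2.69 in members and 2.42 in zero cells. Ly6k, Ly6c2, Ly6a and Cd74, the invariant chain of class II molecules, were the others of the 8 highest named, with ratios of 4.07 to 7.72. Ly6k was at 134 CPM in old and 0.636 CPM in adult members.

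Among the 8 lowest, Kcne4, a potassium channel subunit, was at 21.7 CPM in old members, against 176 CPM in adult members, a log2 ratio of -3.02, and -1.52 in zero cells. Within the old library Kcne4 was lower in members than in zero cells, at 21.7 against 72.4 CPM, while in the adult library it was at 176 against 207 CPM. Ptn had -2.53 in members and -2.11 in zero cells, and Rnf144a -2.44 and -1.77. The others were the skeletal matrix genes Bglap, Bglap2, Col1a1, Col2a1 and Col11a1, with ratios of -3.18 to -5.95. Bglap was at 3.81 CPM in old and 235 CPM in adult members, and at 26.8 CPM in old and 3847 CPM in adult zero cells. Free osteolineage RNA moved with this difference, since its share of UMIs in megakaryocyte-like barcodes had a median of 0% in the old and 0.383% in the adult library, and its part in the result was not tested.

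**Figure D5:**
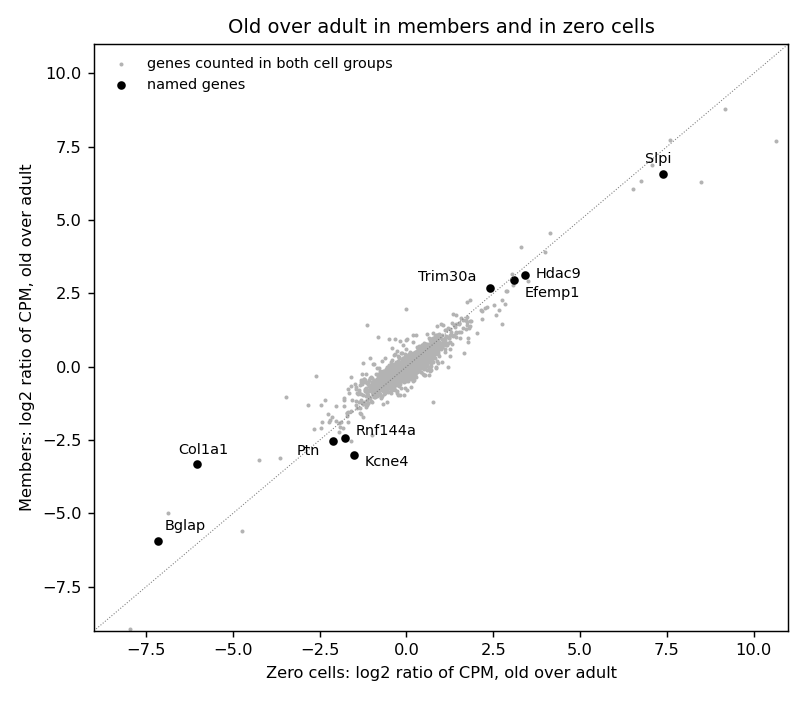
Log2 ratio of CPM, old over adult library, in zero cells (x axis) and in members (y axis), for genes counted in both; black points are named genes and the dotted line marks equal ratios. Hdac9 (3.14 in members, 3.41 in zero cells) lies close to the line, and Kcne4 (-3.02 and -1.52) lies below it.

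Gene lists differed in how far old against adult members matched zero cells. The osteogenic median was -0.52 in members and -1.73 in zero cells, that of heat shock genes -0.33 and 0.03, and that of the channel and transporter genes 0.04 and -0.34. All 18 immediate early genes counted were lower in old members, 5 of them at least 2-fold, against 1.86% of all genes, with a median log2 ratio of -0.83, and -0.81 in zero cells. All 15 antigen presentation genes were higher in old members, 3 of them at least 2-fold, against 2.64% of all genes, with a median of 0.45, and 0.57 in zero cells. Of 13 interferon response genes 12 were higher, with none at 2-fold and a median of 0.45 in both kinds of cell. Of the niche factors 8 were higher and 12 lower in old members, with a median of -0.10, and -0.26 in zero cells. Tnfsf11 was at 233 CPM in old and 867 CPM in adult members, Angpt1, which steadies vessels, at 450.3 and 834 CPM, and Igf1, insulin-like growth factor 1, at 399 and 869 CPM. In zero cells of the old and adult library Tnfsf11 was at 146 and 687 CPM and Igf1 at 213 and 740 CPM. Of the genes that marked members, Bmp4 was 0.58 lower and Fst 0.60 lower on the log2 scale in old members. Both were lower in old than in adult zero cells too, Bmp4 at 79.8 against 137 CPM and Fst at 154 against 275 CPM. Col8a1 was 1.59 and Chl1 1.18 higher in old members, with zero-cell ratios of 1.64 and 1.52.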

How the data were processed

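Gene by cell UMI count matrices of 1 old and 1 adult library were used as deposited by the authors, who made the counts with Cell Ranger on GRCm39 per the submitters' processing notes, version 7.0.1 per the file headers. No normalization had been applied. Members and gene lists were chosen with earlier results of these data known. Cells were filtered as given above, no doublet caller was run, and clean cells and the 1.5-fold call were added after the data were seen. UMIs were summed over members and over zero cells and scaled to CPM. A gene was counted where the higher group reached 50 CPM and 50 UMIs, the genes of the rule were left out, and a ratio of 2-fold was a call. With 1 library per age no test was run. Intervals are exact binomial (Clopper-Pearson) for shares, exact conditional binomial for ratios and exact Poisson for CPM, and UMIs of a cell are not independent of each other.

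For named genes the higher group had to reach 100 CPM and 100 UMIs. Between members and zero cells they were the 15 highest and 10 lowest by the smaller of the 2 libraries' ratios, both in the same direction, and between ages the 8 highest and 8 lowest. Mitochondrial, ribosomal, immunoglobulin, haemoglobin, predicted, sex-linked and blood-cell genes were left out, and the markers of the label and Cxcl12, Kitl, Lepr, Tnfsf11 and Ptn were always given. The calling step was tested on simulated counts: of 200 changed genes it recovered 200 with 0 unchanged genes called, among 4008 genes for the old and 3985 for the adult comparison. A call is a fixed 2-fold cut, so this checked the calculation and not the calls in the real cells. Alternatives changed the thresholds, limits, depth, minimum level, scaling, weighting and choice of zero cells. Python 3.11.15, numpy 2.4.6, scipy 1.17.1, pandas 2.3.3 and matplotlib 3.10.9 were used.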

Additional observations from a re-analysis of the deposited data

Results flagged for a closer look

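The osteogenic list moved in opposite directions in the 2 libraries. Its median log2 ratio of members over zero cells was 0.25 in the old library and -1.42 in the adult library, a difference that was not tested. The rule limited Wif1, Alpl and Hs3st5 in members and not in zero cells. Alpl was at 74.3 CPM in adult members and 266 CPM in adult zero cells. The part of this limit in the result was not tested. Over 1% of UMIs came from osteolineage transcripts in 0% of old members and 0.202% of old zero cells, and in 1.53% of adult members and 18.4% of adult zero cells. In clean cells, which were selected for few osteolineage transcripts, the medians were 0.15 in the old and 0.02 in the adult library.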

How the results depend on the processing

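The old library held the smaller share of members under every setting run. In place of 6.42% of old and 27.6% of adult CAR cells, the share was 17.1% and 47.4% with at least 2 UMIs of the pair, 1.44% and 10.6% with at least 8, 18.3% and 42.6% with no limits on other genes, 4.73% and 21.7% after thinning, and 7.75% and 37.3% in clean cells. It was 28.4% of adult CAR cells with Cdh5 and Kdr at 0. The count of genes called depended on the setting. In old members, 10 genes were higher and 27 lower. These counts were 39 and 75 with at least 8 UMIs, 28 and 11 with no limits, 1 and 5 at a minimum of 200 CPM and UMIs, 35 and 187 at 10, 6 and 15 with cells weighted alike, 28 and 142 in members with Fgf13 alone, 100 and 158 at 1.5-fold, and 6 and 13 in clean cells. The higher count was 5 with at least 2 UMIs, 4 without the highest 5% of UMIs, 18 after thinning and 6 with median-ratio scaling, and the lower count was 17 with zero cells within the limits. In adult members, 6 genes were higher and 52 lower. These counts were 11 and 7 with no limits, 1 and 14 at 200, 18 and 150 at 10, 33 and 106 with Fgf13 alone, and 47 and 90 at 1.5-fold. The higher count was 15 with at least 8 UMIs and 10 after thinning, and the lower count was 17 within the limits, 89 weighted to depth and 5 in clean cells. Between old and adult members, 109 and 77 genes became 30 and 29 at 200, 335 and 220 at 10, and 258 and 252 at 1.5-fold.

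Among list medians that stood away from 0 and genes past 2-fold, these turned sign. In the old library they were CAR identity at -0.016 after thinning, and with Fgf13 alone CAR identity at -0.10, collagens at -0.11, immediate early genes at 0.040 and interferon genes at -0.060. In clean cells oxidative phosphorylation was at 0.058 in each library, adult osteogenic genes at 0.018 and adult blood-cell genes at 0.11. Clean cells were themselves selected for few osteolineage and blood-cell transcripts. Blood-cell genes were at 1.23 with Fgf13 alone in the adult library and at -2.25 between ages with at least 8 UMIs. Among single genes, clean cells gave 0.14 for adult Dcn, 0.075 for old Hmgb2, 0.042 for adult Sparc, 0.0010 for old Car1, 0.039 old and 0.87 adult for S100a8, 0.35 old and 0.29 adult for S100a9, and 0.77 for adult Kcnk2. With no limits S100a8 was at 0.51 and S100a9 at 0.43 in the old library, and Kcnk2 at 0.93 in the adult library, where it was at 0.27 with zero cells within the limits. In the adult library with Fgf13 alone, S100a8 was at 1.38, S100a9 at 1.09 and Cxcl10 at 0.51, and S100a8 was at 0.0018 after thinning. Pf4 between ages was at -0.092 with at least 2 UMIs, -1.503 with at least 8 and -0.86 after thinning. The cause was not tested. Of the other values, 888 list medians and 3468 ratios stayed within their interval, and 67 and 2684 did not. With values nearer 0 included, the sign changed in 89 of 966 list medians and 323 of 6172 ratios over all alternatives, among them 16 of 66 and 75 of 416 in clean cells. No paired analysis was possible because there was 1 library per age. Leaving out a replicate was likewise not possible, and the 33 old members with Fgf13 alone limit that setting.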
